A study of Mus musculus with 8 samples.

Results

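H3K36me3 was examined over the bodies of 385 Zfp genes among 20722 protein-coding genes on mouse chromosomes 1 to 19. A member was any protein-coding gene whose symbol starts with Zfp and a number, and its body was the longest protein-coding transcript in GENCODE M21 on GRCm38, the assembly also called mm10. Members with 3 or more other members within 500 kb, measured as the gap between gene bodies, were called clustered, and there were 195 of these. The other 190 were called isolated. The symbol is a naming convention and does not fix a protein family, so the coding sequences were searched for a zinc finger motif, as given with the sequences. Members are not independent of each other, since many are copies of each other, and 15 clustered and 23 isolated bodies overlapped another protein-coding gene, whose signal cannot be told apart from theirs. Closest to the limit of 500 kb were Zfp945 and Zfp930 inside it, with the third nearest member at 469 kb and 476 kb, and Zfp433 and Zfp938 outside it, both at 503 kb. Their bodies were covered by MEF peaks over 46.7%, 17.4%, 0% and 13.97%, in the same order.

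The study asked how vitamin B12 affects H3K36me3 in fibroblasts under reprogramming. The libraries came from i4F mouse embryonic fibroblasts (MEFs) of stage E13.5, all of which carried Oct4, Sox2, Klf4 and cMyc (OSKM), the reprogramming factors, under the control of doxycycline. All were from 1 embryo, labelled Clone 1, and were grown in medium for induced pluripotent stem cells for 72 h. The conditions were no doxycycline (MEF), no doxycycline with 2 µM vitamin B12 (MEF B12), doxycycline at 1 µg/ml by the labels, where the methods have mg/ml (OSKM), and doxycycline with 2 µM vitamin B12 (OSKM B12). There was 1 H3K36me3 library with its input for each condition. Differences between conditions therefore have no replicate to set them against, and no p-value was computed.

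Most of the large mouse Zfp family encodes DNA-binding proteins with tandem C2H2 zinc fingers, and many pair these with a KRAB domain that recruits the corepressor Trim28 and, through it, the H3K9 methyltransferase Setdb1. Such genes often stand in tandem arrays that arose by duplication, with the fingers encoded in a long last exon. H3K36me3 is written along transcribed gene bodies by Setd2, which travels with RNA polymerase II, and the last exons of zinc finger genes are known to carry it together with H3K9me3. Other Zfp genes are unrelated to this group, among them CCCH proteins that act on mRNA.

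What most members share is the finger array of the last exon. The linker that joins neighbouring C2H2 fingers was searched for in frame on the coding strand as AC, GG, GA, AA and CC in this order with any 1 base between neighbours, and it was found in 156 of 195 clustered members (80%), in 100 of 190 isolated members (52.6%) and in 184 of 20337 other genes (0.905%), which is 2.12% of all coding sequences. Of the 1487 linkers counted in members, 96.6% lay in the last exon. Stretches from 4 last exons are shown 5′ to 3′ on the coding strand of GRCm38, with linkers in capitals, each beginning at a linker, to set a clustered and an isolated gene with peaks beside 2 clustered genes without a peak, 1 in repeated and 1 in unique sequence.
Zfp869, chr8:69706812-69707063, minus strand: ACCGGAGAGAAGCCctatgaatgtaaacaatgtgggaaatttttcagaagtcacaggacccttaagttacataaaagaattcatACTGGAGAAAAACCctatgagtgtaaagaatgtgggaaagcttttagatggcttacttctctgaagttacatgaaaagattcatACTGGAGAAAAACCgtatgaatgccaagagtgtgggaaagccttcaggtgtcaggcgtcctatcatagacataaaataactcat
Zfp12, chr5:143244679-143244930, plus strand: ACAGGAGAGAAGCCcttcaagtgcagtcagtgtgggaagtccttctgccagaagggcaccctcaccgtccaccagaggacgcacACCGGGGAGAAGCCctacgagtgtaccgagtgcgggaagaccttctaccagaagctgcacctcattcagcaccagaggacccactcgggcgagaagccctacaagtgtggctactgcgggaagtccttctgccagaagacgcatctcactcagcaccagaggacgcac
Zfp987, chr4:146124786-146125037, plus strand: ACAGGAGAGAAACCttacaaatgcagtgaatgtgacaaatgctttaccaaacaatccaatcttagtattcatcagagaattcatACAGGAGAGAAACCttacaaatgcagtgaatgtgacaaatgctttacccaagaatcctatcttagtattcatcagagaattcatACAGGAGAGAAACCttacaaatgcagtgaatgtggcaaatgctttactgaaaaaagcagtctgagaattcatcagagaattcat
Zfp879, chr11:50833046-50833297, minus strand: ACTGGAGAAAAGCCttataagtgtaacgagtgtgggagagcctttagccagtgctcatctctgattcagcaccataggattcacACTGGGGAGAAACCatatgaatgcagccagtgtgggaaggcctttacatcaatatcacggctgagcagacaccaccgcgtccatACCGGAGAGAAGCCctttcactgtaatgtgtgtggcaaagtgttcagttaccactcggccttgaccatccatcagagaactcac
Zfp869 and Zfp12 are the clustered and the isolated gene with the highest density of the mark among those with at least 3 linkers in the last exon, and their stretches were covered by peaks over 100% in all 4 libraries. The stretches of Zfp987 and Zfp879 held no peak in any library. They differed in how far their sequence can be placed. Of the 75-base windows sampled in the Zfp987 stretch, 10% occurred once in the genome, against 100% in the Zfp879 stretch.

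Over the whole series, the H3K36me3 libraries held between 29046913 and 33399267 tags of 75 bases after the authors' filters, with the most in OSKM, and between 64364 and 67234 broad peaks lay on chromosomes 1 to 19. These peaks covered between 91.8 Mb, in OSKM, and 163 Mb, in MEF B12. A gene was called marked when peaks covered at least 10% of its body, which held for 43.3% of all genes in MEF and 44.7% in MEF B12, but for 36.3% in OSKM, with 44.9% in OSKM B12. Of 10 fibroblast markers, 8 were marked in MEF and 8 in OSKM, with Twist1 at 0 in every library. Their summed density was 4.95 in MEF and 5.56 in MEF B12, against 3.01 in OSKM, with 5.73 in OSKM B12, so it was lowest in OSKM like that of most genes, and the part of the cells' state in the results was not tested. None of 5 epithelial, 3 endothelial and 6 pluripotency markers was marked in any library. Of 4 blood markers, Cd68 and Csf1r were marked in all libraries, Adgre1 was at 3.69% or less and Ptprc was at 0. Of 3 neural markers, Tubb3 was marked outside OSKM, Map2 was at 0.143% or less and Nes was at 0. The part of neighbouring genes in these values was not tested.

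Zfp genes were marked more often than other genes. In MEF, the marked share was 72.8% (95% Wilson interval 66.2% to 78.6%) for clustered and 68.9% (95% Wilson interval 62.05% to 75.1%) for isolated members, against 42.8% (95% Wilson interval 42.1% to 43.4%) for other genes and the background of 43.3% over all genes. The intervals here cover counting error only. In MEF B12 the shares were 72.8% and 73.2%. They were 55.9% and 61.6% in OSKM and 74.4% and 71.6% in OSKM B12, where other genes stood at 35.8% and 44.4%. OSKM was thus the lowest library for both classes, and in it the clustered share was below the isolated share. With peaks of a −log10 q-value of at least 5 alone, 37.4% of clustered, 50.5% of isolated and 26.9% of other genes were marked in MEF, so both classes stayed above other genes while clustered members came below isolated ones. A body without a peak held no enrichment that could be called at this depth.

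The mean covered share of clustered bodies was 32.9% in MEF and 19.3% in OSKM, or 34.2% and 34% with B12. For isolated bodies it was 34.4% in MEF and 36.4% in MEF B12, against 23.8% in OSKM, with 36.3% in OSKM B12, and for other genes 22.1% in MEF and 15.1% in OSKM, or 23.4% and 23.7% with B12. Members were thus covered further than other genes on average, and fewer of them were bare. A total of 74 of 385 members had no peak in MEF, against 9752 of 20337 other genes, and 52.6% of all genes had a peak. Gene length differed little, with a median of 15.8 kb for clustered, 17.4 kb for isolated and 16.9 kb for other genes, but the spread of lengths was narrower for clustered members. Other genes between the lower and upper quartile of clustered lengths were marked in 55.2% of cases in MEF, which lies between the Zfp classes and all genes. Of related families, 30 of 40 Zbtb genes and 17 of 30 Zscan and Zkscan genes were marked in MEF. Among genes outside the Zfp family that contain the linker, 47.8% were marked.

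**Figure D1:**
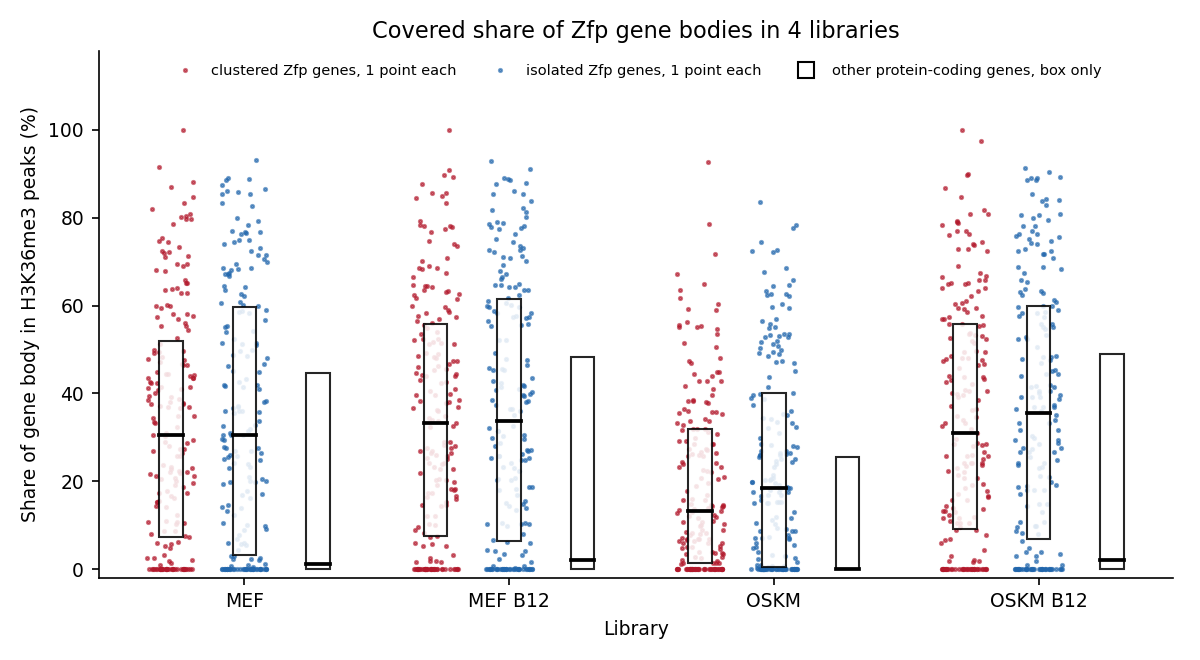
The share of each gene body in peaks (%) is plotted for 195 clustered and 190 isolated Zfp genes, 1 point a gene, in each of the 4 libraries. Boxes give the quartiles with the median as a line, also for the 20337 other genes, and the boxes are lowest in OSKM, where the medians are 13.1% for clustered and 18.5% for isolated members.

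Members with under 50% unique sequence were seldom marked. Reads with more than 1 place in the genome were discarded before the peaks were called, so the share of 75-base windows that occur once was measured for each body. Only exact matches were counted, so a window called unique may still have a near copy elsewhere. Among clustered members with under 50% of their windows unique, 1 of 17 was marked in MEF. Of those between 50% and 90%, 19 of 35 were marked. With 90% or more of the windows unique it was 122 of 143, or 85.3%. Isolated members gave 0 of 8, 3 of 19 and 128 of 163 (78.5%) in the same 3 classes. Other genes with 90% or more were marked in 46.8% of cases, so the difference between Zfp and other genes was at least as large among genes with unique sequence. A body without peaks in repeated sequence cannot be told apart from a body without the mark. In the clustered class, 13 members with 90% or more of their windows unique by exact match had no peak in MEF, Zfp879 among them.

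**Figure D2:**
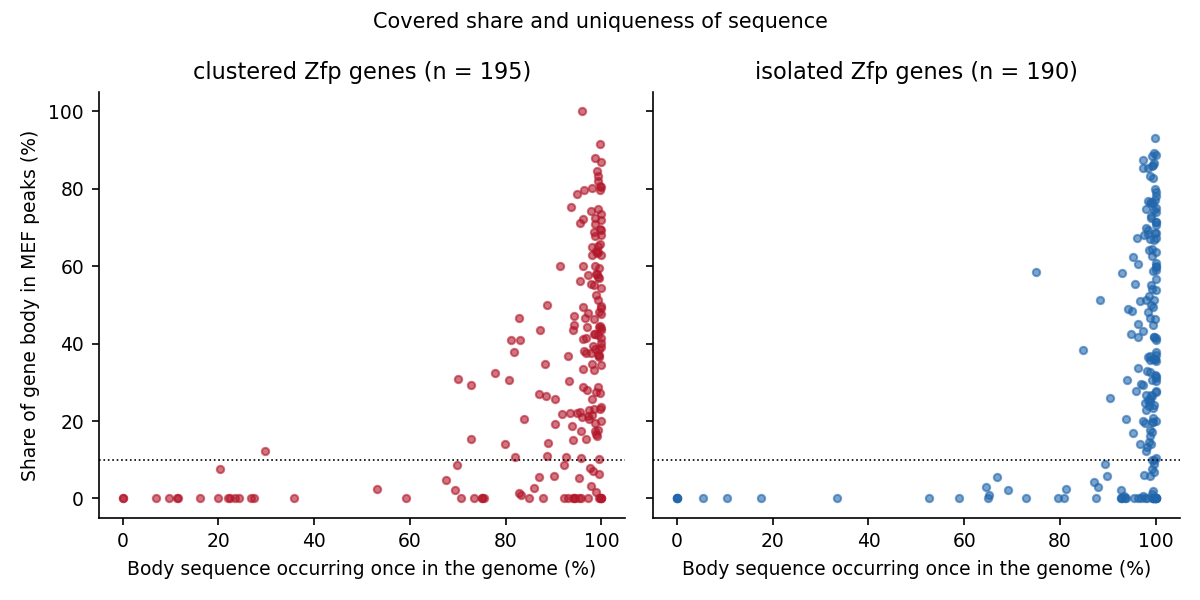
The share of each body in MEF peaks (%) is plotted against the share of its sampled 75-base windows that occur once in the genome (%), for clustered and isolated Zfp genes in separate panels. The dotted line is the limit of 10% for a marked gene, and of the 17 clustered and 8 isolated genes under 50% unique, 1 lies above it.

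In MEF, members with the most linkers were marked least often. Clustered members with 1 to 5 linkers were marked in 80.6% of 67 cases in MEF and were 88.7% unique on average. With 6 to 10 linkers the share was 71.01% of 69 at 89.5% unique, and with 11 or more it was 55% of 20, where the bodies were 75.7% unique. Members without a linker were marked in 71.8% of 39 clustered and 65.6% of 90 isolated cases. Isolated members with 1 to 5 linkers were marked in 78% of 59 cases at 97.3% unique, and with 6 to 10 in 69.7% of 33 at 86.9%. With 11 or more it was 37.5% of 8 at 62.3% unique. In both classes the marked share was thus lower from 6 linkers on than with 1 to 5. Uniqueness was lower only from 11 on in clustered members, but from 6 on in isolated members. The part of repeated sequence in this was not tested.

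Clustered members formed 23 runs in which neighbours lay at most 500 kb apart. The largest was the 23 genes from Zfp712 to Zfp273 at chr13:67038596-67827002, with a mean covered share of 24.5% in MEF and 24.8% in MEF B12, against 9.11% in OSKM, with 22.03% in OSKM B12. Of these genes, 20 were marked in MEF, 7 in OSKM and 19 in OSKM B12. The 21 genes from Zfp160 to Zfp40 at chr17:21008903-23193252 had a mean covered share of 28.4% in MEF and 10.9% in OSKM, or 31.02% and 26.9% with B12, with 16, 10 and 17 marked in the same 3 libraries. Both runs were low in OSKM and close to MEF again in OSKM B12, and both were over 90% unique on average.

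The run on chromosome 4 stood apart. Its 17 genes from Zfp980 to Zfp933 at chr4:145670685-147848366 had a mean covered share of 2.01% in MEF and 1.99% in MEF B12, against 0.492% in OSKM, with 1.77% in OSKM B12. Zfp933 was the 1 gene marked in MEF, at 29.3%, and Zfp984 was covered over 4.83%, while the other members held no peak in any library. On average 38.5% of the sequence of these bodies was unique, and Zfp985, which held no peak, was 87.8% unique. The lowest values were those of Zfp965 and Zfp969 and of Zfp972 on chromosome 2, at 0 in all libraries, with 0% and 27.4% unique sequence.

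The run with the highest covered share was that of 8 genes from Zfp786 to Zfp467 at chr6:47819266-48445567, with 55.03% in MEF and 41.5% in OSKM, or 57.1% and 58.4% with B12. All 8 were marked in all 4 libraries. Within this run the covered share in MEF ran from 23.1% in Zfp786 to 87% in Zfp746, so neighbouring genes of 1 run differed widely. Between the genes peaks were sparse. The 7.70 Mb of these runs outside any protein-coding body were covered over 1.62% in MEF and 1.77% in MEF B12, against 0.741% in OSKM, with 1.64% in OSKM B12. Runs differed in this, from 0 in several, the chromosome 4 run among them, to 10.7% in the run from Zfp553 to Zfp646 in MEF, and the uniqueness of these bases was not measured.

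**Figure D3:**
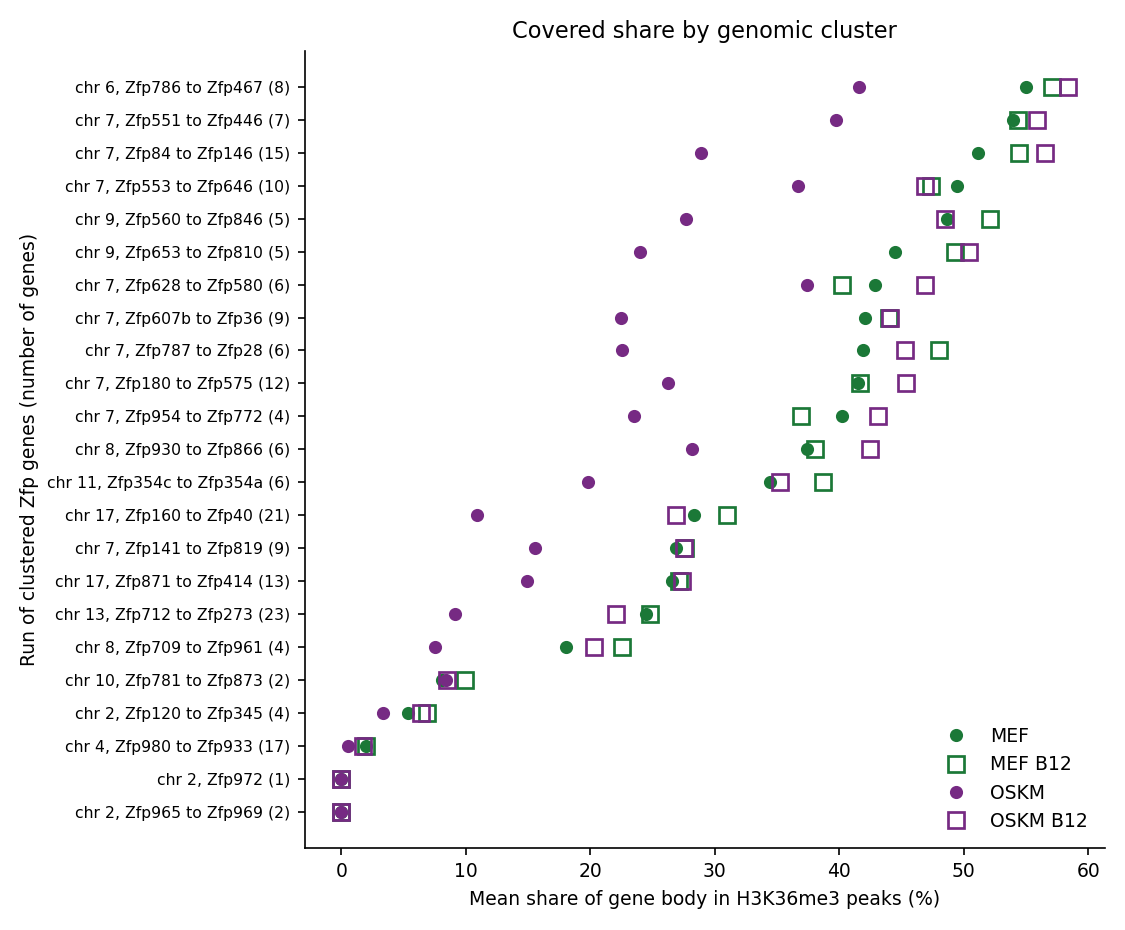
The mean share of the body in peaks (%) is plotted for each of the 23 runs of clustered Zfp genes, named by chromosome, first and last gene and number of genes, with filled circles for libraries without and open squares for libraries with vitamin B12. OSKM is the lowest of the 4 libraries in the runs above 10% in MEF, and the chromosome 4 run lies at 2.01% in MEF.

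For all that follows on place and change, members were kept when their covered share averaged at least 10% over the 4 libraries. This held for 140 clustered and 133 isolated members and for 8966 of all genes (43.3%). Shares and medians of density changes given below for all genes or other genes are over genes that passed this filter, unless another set is named. The mark lay toward the 3′ end. In MEF, the last exon of clustered members was covered over 66.97% on average and the first 20% of the body over 11.4%. Isolated members had 79.7% and 12.6%, and other genes 78.4% and 13.7%. The last exon was covered further than the first 20% in 122 of 140 clustered and 126 of 133 isolated members. In OSKM the last exons were covered over 45.6% and 60.3%. The first exon was nearly bare in MEF in both classes, at 1.43% and 0.599%.

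Clustered members differed from the rest in where the mark ended. In the last exon in MEF, the coding part was covered over 82.4% in clustered, 93.5% in isolated and 86.8% in other genes, while the 3′ UTR was covered over 51.6%, 69.4% and 77.5%. The first 1 kb past the annotated gene end was covered over 24.3%, 47.4% and 60.5%. The groups thus lay closer together in the coding part than past it, although the length of that part differed between them.

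The same was seen by distance from the end of the coding sequence. In the last 500 coding-side bases, the mean covered share in MEF was 82.9% for clustered, 92.9% for isolated and 84.6% for other genes. From 500 to 1000 bases past it, the values were 48.3%, 67.9% and 76.9%, and from 2000 to 2500 bases past it they were 20.1%, 43.03% and 51.3%. Genes outside the family with a linker, at 44.96% in that last window, were close to isolated members in MEF. In OSKM the clustered value from 2000 to 2500 bases was 7.80%, against 31.6% and 31.8%, and genes outside the family with a linker stood at 22.2%, below isolated members. Clustered members had a median 3′ UTR of 1197 bases, against 1323 in isolated and 997 in other genes. The median coding part of the last exon was 1400, 971 and 141 bases in the same order. In many other genes the last 500 coding-side bases therefore reach past the last exon, so these windows are not like regions. The sequence past the coding end of clustered members was between 94.6% and 99.4% unique by exact match in each window of 500 bases, and that of the bases before it between 95.5% and 97.2%. Clustered members were lower than isolated and other genes in every window past the coding end in all 4 libraries. Genes that overlap another protein-coding gene were kept in these windows. Before the filter these were 7.69% of clustered, 12.1% of isolated and 17.3% of other genes. The part of overlapping and neighbouring genes in the windows was not tested. Over genes whose last 500 coding-side bases were covered whole in MEF, chosen after seeing the data, 23.5% of the window from 2000 to 2500 bases was covered in 103 clustered members, 47.5% in 113 isolated members and 57.6% in 6309 other genes.

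**Figure D4:**
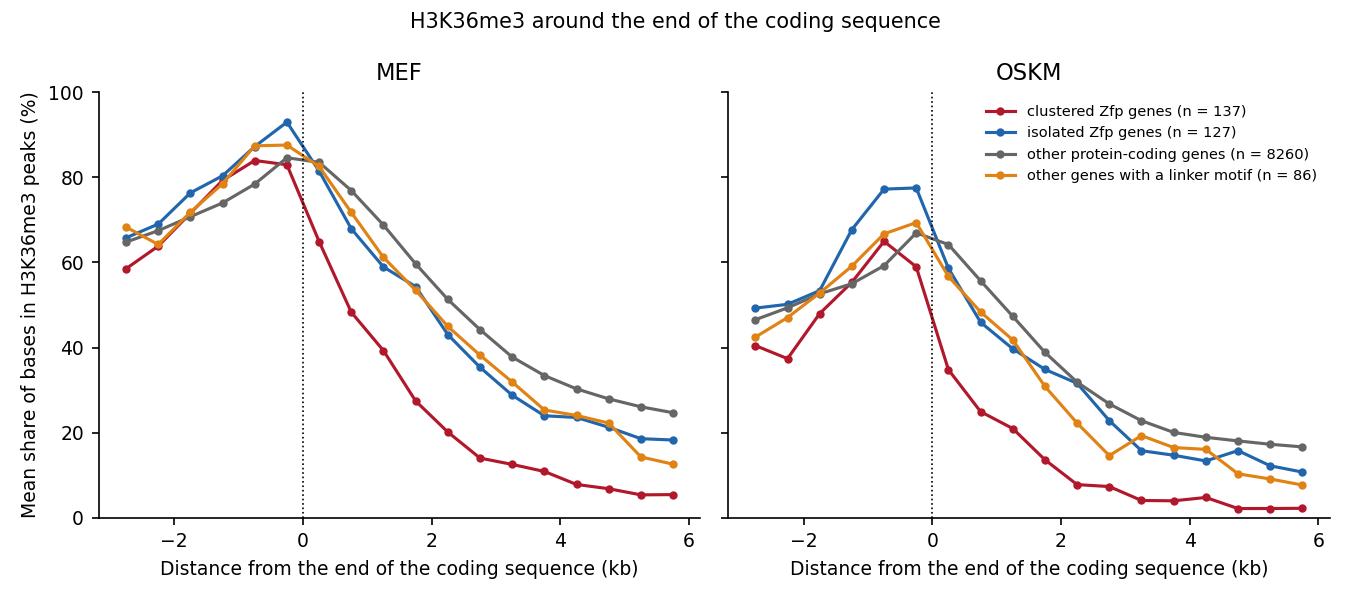
The mean share of bases in peaks (%) is plotted in windows of 500 bases against the distance from the end of the coding sequence (kb, positive values downstream), for MEF and OSKM, over genes that passed the filter and end their coding sequence in the last exon. The curve of the 137 clustered members falls soonest, to 20.1% between 2000 and 2500 bases in MEF, and those of the other groups lie above it.

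The highest densities were found in well covered members. Density is the summed pileup per 1000000 tags over the bases of a gene in peaks, divided by the length of the body. Zfp869 had the highest mean density of the clustered members, with 0.877 in MEF and 0.523 in OSKM, or 1.03 and 0.994 with B12. Its body of 4393 bases was covered over 100% in MEF and 100% in MEF B12, against 92.8% in OSKM, with 100% in OSKM B12. It was followed by Zfp646, Zfp110, Zfp865 and Zfp746, with MEF densities from 0.644 to 0.712. Of isolated members, Zfp335, which encodes a regulator of neural progenitors, led with 0.843 in MEF and 0.567 in OSKM, or 1.01 and 1.18 with B12. Zfp651, Zfp276, Zfp12 and Zfp408 followed, with MEF densities from 0.629 to 0.716. Zfp646 and Zfp276 overlap another gene. In each of these 10 genes the density was lowest in OSKM, and 98.4% of all genes were lower in OSKM than in MEF.

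Among members grouped by role, the CCCH genes Zfp36, Zfp36l1 and Zfp36l2, whose proteins bind AU-rich elements and promote mRNA decay, were marked in all libraries. Zfp36, which encodes tristetraprolin, was covered over 38.5% in MEF and 42.6% in MEF B12, against 14.4% in OSKM, with 40.9% in OSKM B12. Its density changed by -1.31 from MEF to OSKM, 1.52 from OSKM to OSKM B12 and -0.11 from MEF to MEF B12 on the log2 scale. The other 2 changed by -0.73 and -0.69 from MEF to OSKM.

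Members tied to pluripotency, imprinting or retroelements ranged from bare to well covered. Zfp42, the pluripotency marker also called Rex1, held no peak in MEF, MEF B12 or OSKM B12 and was covered over 2.42% in OSKM. Zfp57, which maintains methylation at imprinted regions, was covered over 49.96% in MEF and 19.2% in OSKM, or 59.7% and 52.4% with B12. Zfp445, with a like role, was covered over 67.4% in MEF and 67.1% in MEF B12, against 51.7% in OSKM, with 59.8% in OSKM B12. Zfp57 was thus more than 2-fold lower in OSKM, at a log2 density change of -1.13, against -0.79 for Zfp445. Zfp568, a repressor of a placental Igf2 transcript, was covered over 79.8% in MEF and 47.4% in OSKM, or 85.6% and 89.7% with B12. Zfp809, which silences endogenous retroviruses, was covered over 44.9% in MEF and 45.5% in MEF B12, against 30.8% in OSKM, with 46.5% in OSKM B12. Zfp281, a partner of Nanog in embryonic stem cells, had no peak in OSKM and 30.5% in MEF, 57.2% in MEF B12 and 40% in OSKM B12. Zfp296 stood at 27.8% in MEF, Zfp217 at 41.8% and Zfp462 at 24.3%. All 8 of these genes that passed the filter were lower in OSKM than in MEF, with a median of -0.80, against 98.4% of all genes.

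Members that act on RNA, ribosomes or the spindle were well covered apart from Zfp593, a short gene of 2304 bases with no peak in any library. Zfp207, whose protein loads the spindle checkpoint factor Bub3, was covered over 86.6% in MEF and 64.7% in OSKM, or 91.2% and 89.1% with B12. Zfp622, a factor of large ribosomal subunit maturation, was covered over 77.05% in MEF and 77.8% in MEF B12, against 52.8% in OSKM, with 80.5% in OSKM B12. Zfp598, a ubiquitin ligase that senses collided ribosomes, was covered over 44.8% in MEF and 43.8% in OSKM, or 55.7% and 45.1% with B12, so its covered share in OSKM was close to that in MEF while its density changed by -0.55 from MEF to OSKM. The splicing-linked genes Zfp326 and Zfp638 and the RNA-binding genes Zfp106 and Zfp346 had MEF covered shares from 41.7% to 64.5%. The 7 genes that passed the filter were all lower in OSKM, with a median of -0.72, against 98.4% of all genes.

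Zfp423, a factor of preadipocyte commitment, was nearly bare, with 1.97% in MEF and 2.22% in MEF B12, against 2.86% in OSKM, with 6.46% in OSKM B12. Its antagonist Zfp521 was covered over 19.8% in MEF and 9.12% in OSKM, or 20.3% and 24.2% with B12. Zfp516, a gene of brown fat, stood at 36.8% in MEF, Zfp467 at 34.4% and Zfp703, which encodes a transcriptional corepressor, at 60.2%. Of the 4 that passed the filter, which leaves out Zfp423, Zfp703 was the least changed from MEF to OSKM, at -0.13. The 3 partners of ZMYND8 were marked in all libraries, Zfp687 at 67.2%, Zfp532 at 54.2% and Zfp592 at 49.6% in MEF, and changed by -0.49, -1.05 and -0.73.

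From MEF to OSKM, the density of nearly all members that passed the filter was lower. It was lower in 139 of 140 clustered and 131 of 133 isolated members, against a background of 98.4% of all genes that passed. The direction is thus that of the filtered genes as a whole. The median log2 change was -0.82 for clustered, -0.71 for isolated and -0.71 for other genes, with 0.05 added to each density. A fall of at least 2-fold was seen in 39 clustered members (27.9%) and 21 isolated members (15.8%), with 19.4% of all genes. Clustered members thus lay above and isolated members below the share over all genes. Other genes between the lower and upper quartile of clustered lengths stood at 15.4%, near isolated members. With peaks of a −log10 q-value of at least 5 alone, the medians were -1.97 for clustered, -1.89 for isolated and -2.15 for other genes. Clustered members then still fell more than isolated members, but both fell less than other genes. A rise of at least 2-fold was seen in 0 members and in 0.134% of all genes.

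Clustered members also lost more of their covered length. Their mean covered share in OSKM was 0.593 of that in MEF, against 0.697 for isolated and 0.689 for other genes. Over the bases called in all 4 libraries, 0.512 Mb in clustered and 0.882 Mb in isolated bodies, the mean pileup per 1000000 tags in OSKM was 0.775 and 0.768 of that in MEF, and 0.754 in other genes. These bases leave out all those without a peak in OSKM, so the ratios do not measure the whole change. The next counts take genes marked in MEF, whether or not they passed the filter. Unmarked in OSKM were 33 of 142 clustered (23.2%) and 16 of 131 isolated members (12.2%), with 16.9% of all genes marked in MEF. Among members at least 90% unique these shares were 18.03% and 12.5%. The clustered share was then nearer the 16.3% of other such genes. Among other genes between the lower and upper quartile of clustered lengths, not selected for uniqueness, it was 10.98% of 2012. Fewer cells with the mark, less mark per cell and a less efficient immunoprecipitation in OSKM cannot be told apart with 1 bulk library per condition. The median −log10 q-value of peaks was lowest in OSKM, at 2.23.

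The largest falls with a mean covered share of at least 25% were those of Zfp85, Zfp281 and Zfp518a. Zfp85, at chr13:67747800-67755228 with 8 linkers, was covered over 40.8% in MEF and 28.9% in MEF B12, against 0% in OSKM, with 34.7% in OSKM B12, and its density changed by -2.16 from MEF to OSKM on the log2 scale. Zfp281 changed by -2.03 and Zfp518a by -1.66, the latter from 48.1% to 10.2% covered. Zfp85 and Zfp281 held no peak in OSKM, so their values depend on the added 0.05. No member rose under the same rule. Of members with a lower covered share, Zfp428, Zfp365 and Zfp959 were higher in OSKM, at 0.40, 0.33 and 0.26, against 1.36% of all genes, and were named after their values were seen.

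**Figure D5:**
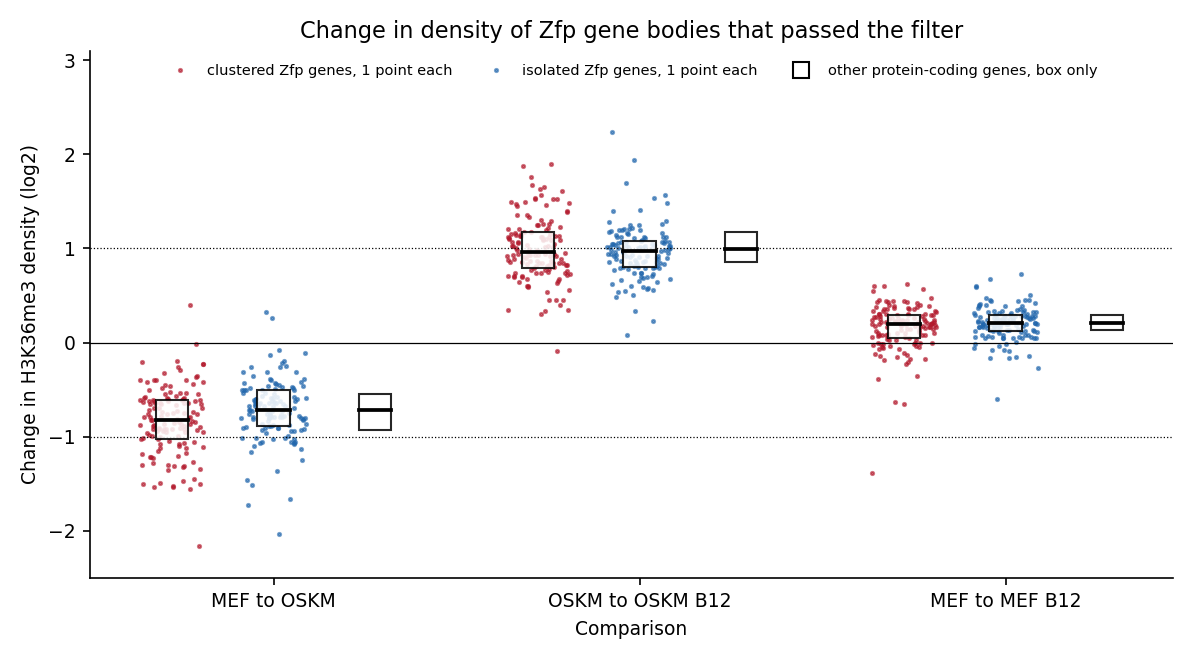
The log2 change in density is plotted for 3 comparisons and the 140 clustered and 133 isolated members that passed the filter, 1 point a gene, with boxes for the quartiles and the median, also of other genes. Dotted lines mark a change of 2-fold, and the medians from MEF to OSKM are -0.82 and -0.71.

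Vitamin B12 in OSKM cells went with a higher density in nearly all members. The comparison shares the OSKM library with the previous one. Densities in OSKM B12 exceeded those in OSKM in 139 of 140 clustered and 133 of 133 isolated members, with 99.7% of all genes. The median log2 change was 0.97 and 0.97, against 0.99 in other genes. At least 2-fold higher were 67 clustered (47.9%) and 58 isolated members (43.6%), near the 48.3% of all genes, so members did not stand apart by this count. Of the 49 members marked in MEF and unmarked in OSKM, 46 were marked in OSKM B12, with 91.5% of all such genes. The 3 others were Zfp575, Zfp455 and Zfp995, named after their values were seen. The largest rises were those of Zfp281 (2.24), Zfp454 (1.90) and Zfp85 (1.87). Zfp454 was covered over 27.3% in MEF and 3.41% in OSKM, or 39.5% and 36.4% with B12. The 1 member with a lower density was Zfp273, at -0.09, against 0.223% of all genes, and 0 members fell 2-fold, against 0.0112%. Zfp273 had covered shares of 14.3% in OSKM and 11.8% in OSKM B12.

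Without doxycycline, the differences with vitamin B12 were small. Density was higher in MEF B12 than in MEF in 110 of 140 clustered (78.6%) and 120 of 133 isolated members (90.2%), against 91.9% of all genes. It was lower in 29 and 13 members, against 8.07% of all genes, so lower values were more frequent among clustered members. Median log2 changes were 0.19, 0.20 and, for other genes, 0.21. Without division by the tags of each library the medians of the Zfp classes were 0.054 and 0.062. A change of at least 2-fold was seen in 1 member, Zfp524, with no peak in MEF B12 and 19.96% covered in MEF, and in 0.245% of all genes in that direction. No member rose 2-fold, with 0.848% of all genes. By the rule, the highest changes were those of Zfp788 (0.67), Zfp956 (0.62) and Zfp54 (0.60). Zfp54 was covered over 25.8% in MEF and 52.4% in MEF B12, against 5.90% in OSKM, with 42.2% in OSKM B12, and was lowest in OSKM. The lowest were those of Zfp414 (-0.63), Zfp85 (-0.35) and Zfp579 (-0.23).

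Set against MEF, OSKM B12 was slightly higher in density per tag. This comparison uses the MEF and OSKM B12 libraries of the others. Density was higher in OSKM B12 in 107 clustered and 125 isolated members, against 92.2% of all genes, and lower in 33 and 8, against 7.76%. Median log2 changes were 0.17 and 0.24, and 0.27 in other genes. The libraries held 32582688 tags in MEF and 29627886 in OSKM B12, and the medians without division by tags were not computed here. Covered share, which is not divided by tags, was higher in 79 and lower in 60 clustered members. It was higher in 93 and lower in 40 isolated members, and higher in 6385 and lower in 2525 of 8966 genes. At least 2-fold higher were 1 clustered and 1 isolated member, Zfp428 (2.08) and Zfp692 (1.00), named after their values were seen, with 1.43% of all genes, and at least 2-fold lower were 0 and 0, with 0.178%.

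The corepressors that KRAB zinc finger proteins act through, a list of 17 genes, moved with the rest. All 17 were marked in MEF, and 16 in OSKM, against 43.3% and 36.3% of all genes. Trim28, the direct partner of the KRAB domain, was covered over 79.5% in MEF and 74.96% in OSKM, or 78.6% and 75.4% with B12. Setdb1, which methylates H3K9, was covered over 79.7% in MEF and 82.4% in MEF B12, against 65.5% in OSKM, with 86.2% in OSKM B12. Fam208a, a subunit of the silencing complex HUSH, was covered over 54.1% in MEF and 19.2% in OSKM, or 67.1% and 58.3% with B12 and was the lowest in OSKM relative to MEF among the list, with a log2 density change of -1.34, followed by Smarcad1 at -1.24. The 17 genes were all lower in OSKM, with a median of -0.78, against 98.4% of all genes. A fall of at least 2-fold was seen in 2 of them, against 19.4% of all genes. All were higher in OSKM B12 than in OSKM, with a median of 0.95, against 99.7% of all genes. All were also higher in MEF B12 than in MEF, with a median of 0.25, against 91.9%. These medians lie near those of all genes, -0.71, 0.99 and 0.21 in the same order.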

How the data were processed

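Gene bodies were intersected with the 4 lists of broad H3K36me3 peaks that were deposited for embryo Clone 1. Per the submitters' processing notes and the methods, reads were mapped by the authors on mm10 using Bowtie 0.12.9, restricted to 1 place in the genome and freed of duplicates, and peaks were called in each library against its own input with MACS2 2.2.6, at q-value cut-offs of 0.05 and 0.1. The deposited pileup is a signal (the mean fragment coverage of a peak), the deposited fold enrichment is a ratio to the input level, and the p-value and q-value were deposited as −log10. The labels name the antibody for H3K3me3 in 1 place and H3K36m3 in another, and the latter was followed.

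Pileup was divided by the tags of each library and scaled to 1000000. Densities were compared as log2 with 0.05 added, which makes changes of weakly marked genes smaller. Uniqueness was the share of 75-base windows, taken every 25 bases on GRCm38, that matched 1 place on either strand exactly. Python 3.11, numpy 2.4.6 and pandas 2.3.3 were used. The interval sums and the window counts were tested on simulated data.

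Named genes were members listed by role, the 5 clustered and 5 isolated members with the highest mean density, up to 3 rises and 3 falls in each comparison among members with a mean covered share of at least 25% and the same direction in covered share, the members nearest to 500 kb, and the 3 largest runs with the highest and lowest. The members and lists were chosen with earlier results of these data known. Enrichment too weak to be called at this depth counts as 0. Genes on the sex chromosomes were left out of the comparisons.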

Additional observations from a re-analysis of the deposited data

Results flagged for a closer look

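In 7 of the named members, the log2 change in density with vitamin B12 was below 0 in MEF and above 0 in OSKM. With the change in MEF given first and that in OSKM second, these were Zfp85 (-0.35 and 1.87), Zfp36 (-0.11 and 1.52), Zfp518a (-0.033 and 1.48), Zfp930 (-0.14 and 1.14), Zfp296 (-0.27 and 1.02), Zfp579 (-0.23 and 0.63) and Zfp414 (-0.63 and 0.31). With 1 library per condition the difference was not tested. Zfp85, Zfp414 and Zfp579 were named for their falls in MEF B12, so this direction was part of their choice. Over all members that passed the filter, the changes had opposite signs in 43 of 273 (15.8%), 42 of them lower in MEF B12 and higher in OSKM B12, against 733 of 8966 genes (8.18%) overall.

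The X chromosome, which the comparisons left out, holds 9 Zfp genes. Of these, 5 were marked in MEF and 5 in MEF B12, but 2 in OSKM, with 4 in OSKM B12. Zfp280c was covered over 56.4% in MEF and 54.9% in MEF B12, against 7.4998% in OSKM, with 54.7% in OSKM B12. Over all protein-coding genes of the X chromosome the marked share was 25.4% in MEF and 12.8% in OSKM, or 26.1% and 25.6% with B12, so both the X-linked Zfp genes and the chromosome as a whole were lowest in OSKM.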

How the results depend on the processing

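Of 103 alternative values of 10 results, 77 stayed within the interval over genes of the reported value, 26 moved outside it, and 0 changed sign. A limit of 2 on fold enrichment left all 10 values unchanged, so those count among the 77 without testing anything. A marked share cannot change sign, so that count bears only on the density changes and the last exon difference. When peaks below a −log10 q of 5 were dropped, the marked share in MEF was 37.4% for clustered and 50.5% for isolated members, the median log2 change from MEF to OSKM was -1.97 and -1.89, that from OSKM to OSKM B12 was 2.42 and 2.29, and that from MEF to MEF B12 was 0.26 for isolated members. In gene bodies at least 90% unique the marked share was 85.3% and 78.5%, and with marked set at 25% of the body it was 55.9% and 57.4%. With a pseudocount of 0.01 the changes were -1.02 and -0.85 from MEF to OSKM, and 1.22 and 1.13 from OSKM to OSKM B12. With no filter on covered share they were -0.65 and -0.58, 0.85 and 0.85, and, from MEF to MEF B12, 0.13 and 0.16. With the pileup not divided by the tags of each library they were 0.83 and 0.83 from OSKM to OSKM B12, and 0.054 and 0.062 from MEF to MEF B12. Leaving out chromosome 4, an alternative chosen after seeing the data, gave a clustered marked share of 79.2%. A second alternative chosen after seeing the data, last exons at least 90% unique, left the difference between the last exon and the first 20% of the body within its interval. The cause of these moves was not tested. No paired analysis was possible because the design holds 1 library for each condition, and no replicate could be left out.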
